A study of Mus musculus with 6 samples.

Results

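The subject is the naive pluripotency network, the set of transcription factors that hold mouse embryonic stem cells (ESCs) in a state from which every cell type of the embryo can form. It was taken as 10 named genes, *Pou5f1*, *Sox2*, *Nanog*, *Klf2*, *Klf4*, *Klf5*, *Esrrb*, *Tfcp2l1*, *Tbx3* and *Zfp42*, and all 10 were found among the 19338 gene symbols and 20633 transcript entries of the deposited table. Where a symbol had several entries, the one with the highest base mean was kept. Nuclear RNA had been sequenced from 6 libraries of Rybpfl/fl;Yaf2-/- ESCs, 3 of them untreated (UNT) and 3 from cells exposed for 96 hr to 4-hydroxytamoxifen (OHT) at 800 nM. Every library came from the same edited line, so that YAF2, the paralogue of RYBP, was missing from both groups. In this line OHT activates a Cre recombinase that deletes *Rybp*, a subunit gene of variant Polycomb repressive complex 1, and cells were kept in serum and leukaemia inhibitory factor (LIF) on gelatin. No group of OHT-treated cells with intact *Rybp* is among these samples, and *Yaf2*-deleted colonies had been isolated singly.

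The base mean is the only measurement used here. It is the authors' mean, over all 6 libraries, of the read count of an entry after division by a size factor for library depth. UNT and OHT libraries both enter it, so these values describe the network across the experiment and cannot show whether any factor rose or fell after OHT. No value per library was analysed here. The depth of each library is therefore unknown, no spread between replicates can be given, and the order of factors with close values cannot be tested. The base mean of *Rybp* was 13983 normalised counts and that of *Yaf2* was 3.2, at percentile 11.7 of the entries above 0.

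OCT4 (encoded by *Pou5f1*), SOX2 and NANOG form the core of the network and bind many of the same regulatory elements, their own genes included. KLF2, KLF4 and KLF5 are related zinc finger proteins with overlapping roles in keeping ESCs undifferentiated. ESRRB, TFCP2L1 and TBX3 tie the core to LIF, WNT and other signals of the naive state, and *Zfp42* (REX1) is a widely used marker of that state. All of these genes are transcribed by RNA polymerase II, and nuclear RNA holds their unspliced transcripts beside spliced ones.

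All 10 factors were transcribed in these cells, with base means from 1560.2 normalised counts for *Klf2* to 12088 for *Tfcp2l1*. The median over the 10 was 2664 normalised counts, against 306.7 for all 19198 entries with a base mean above 0. The lowest of the factors stood at percentile 78.9 of these entries and the highest at percentile 99.0. The top decile, which began at 3254.6 normalised counts and holds 10.0% of entries by construction, held 3 of the 10 (*Tfcp2l1*, *Esrrb* and *Sox2*).

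**Figure D1:**
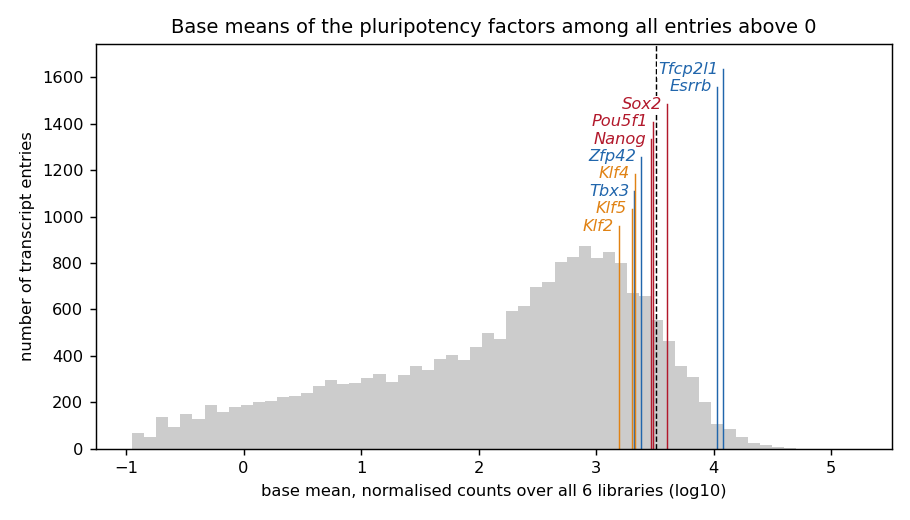
Histogram of the base mean (log10 of normalised counts, mean over all 6 libraries) for the 19198 entries above 0, with the 10 pluripotency factors as coloured lines (red, core; orange, KLF; blue, other naive-state factors) and the start of the top decile dashed. All 10 lines lie in the upper part of the distribution, and *Tfcp2l1* and *Esrrb* stand apart from the remaining 8.

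The 3 core factors had similar base means. *Sox2* had 4013 normalised counts, *Pou5f1* 3039 and *Nanog* 2929.6, at percentiles 92.3, 89.1 and 88.6. The KLF factors were lower. *Klf4* had 2127 normalised counts, *Klf5* 2016.5 and *Klf2* 1560.2, so that by base mean none of the 3 reached a core factor, an order that does not hold per kb of span, where *Klf2* exceeded *Nanog*. The remaining factors covered the widest range. *Tfcp2l1* (12088 normalised counts) and *Esrrb* (10603) exceeded every other member, whereas *Zfp42* had 2399 and *Tbx3*, a T-box factor, had 2121.

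Base means are not corrected for gene length, and the 10 genes differ greatly in length. The transcript paired with the entry of *Sox2* in the GENCODE annotation of mm10 is a single exon of 2057 bases on chromosome 3, from 34650405 to 34652461 on the plus strand. That of *Esrrb* extends over 160512 bases of chromosome 12, from 86361117 to 86521628 on the plus strand, of which exons make up 2.7%. *Tfcp2l1* occupies 57223 bases of chromosome 1 (118627946 to 118685168, plus strand) with 15 exons, the most of any member. *Pou5f1* (chromosome 17, 35506018 to 35510772), *Klf2* (chromosome 8, 72319033 to 72321656) and *Nanog* (chromosome 6, 122707489 to 122714633) are short genes on the plus strand. *Klf4* (chromosome 4, 55527143 to 55532466) and *Zfp42* (chromosome 8, 43295067 to 43306980) lie on the minus strand. *Klf5* (chromosome 14, 99298691 to 99315036) and *Tbx3* (chromosome 5, 119670862 to 119684724) lie on the plus strand.

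Which part of a gene was counted was examined in the table itself. For 212 genes with 2 overlapping entries whose spans differ at least 2-fold, the entry with the longer span had the higher base mean in 207 (97.6%). In 43 of these pairs the entry with the longer span has the shorter exons, and the longer span still had the higher base mean in 41 (95.3%). Levels were therefore compared between genes per kb of transcript span, introns included, and per kb of exon as an alternative.

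Per kb of span, *Sox2* was the highest member, with a base mean of 1951 per kb. *Pou5f1* followed with 639 per kb, *Klf2* with 595, *Nanog* with 410.0 and *Klf4* with 399.5. The middle of the order was formed by *Tfcp2l1* with 211 per kb, *Zfp42* with 201 and *Tbx3* with 153. *Klf5*, at 123 per kb, and *Esrrb*, at 66.1 per kb, were the lowest, and *Sox2* exceeded *Esrrb* 29.5-fold on this scale. The median of all 18871 entries with a known length was 14.05 per kb, so that *Esrrb* was still 4.7-fold above it and *Sox2* 139-fold. In the top decile by this measure, which started at 120.8 per kb and holds 10.0% of entries, lay 9 of the 10 factors. *Klf5*, at percentile 90.3, was just inside it, and *Esrrb*, at percentile 80.1, was outside.

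The order changed when exon length was used. Per kb of exon, *Esrrb* moved from the last place to the first, with 2466 normalised counts per kb. Exons make up 2.7% of its span, and base means of the paired entries above followed the span. A count that includes introns is thus divided by a short exon length, and this first place is not a measure of spliced RNA. *Pou5f1* (2231 per kb of exon), *Sox2* (1951) and *Nanog* (1468) came next. *Zfp42* and *Tfcp2l1*, at 1354 and 1304 per kb of exon, were close to each other, as they were per kb of span. The KLF factors lay between 602 for *Klf5* and 845 for *Klf2*, and *Tbx3* was lowest with 444 per kb of exon. On this scale 6 of the 10 were in the top decile (10.0% of entries, from 1019 per kb of exon). The core factors were in the top decile by both measures, whereas each KLF factor was in it only per kb of span.

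**Figure D2:**
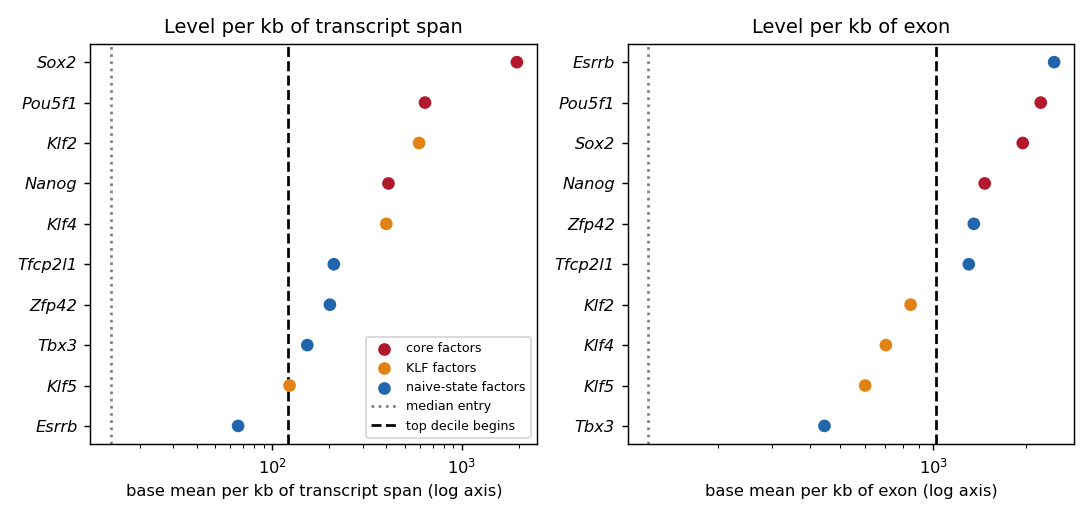
Base mean of each factor divided by the kb of its transcript span (left) or of its exons (right), on log axes; dotted lines mark the median entry and dashed lines the start of the top decile. *Sox2* leads and *Esrrb* is last per kb of span, while *Esrrb* leads per kb of exon; points are the authors' means over all libraries and carry no error bars.

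*Esrrb*, an orphan nuclear receptor gene, was the only member with 2 entries. The longer entry starts 60.5 kb upstream of the shorter one, and both end within a few bases of each other. Their base means were 10603 and 10589.5 normalised counts, a difference of 13.0 (taken before rounding). The upstream 37.7% of the longer span thus added 0.12% of its base mean, or 0.22 normalised counts per kb, against 105.9 per kb over the whole span of the shorter entry. Nearly all reads of *Esrrb* were therefore counted downstream of the second start. With the shorter span *Esrrb* lay at percentile 88.2 per kb instead of percentile 80.1. The stretches before the starts are shown for this contrast. Both are from RefSeq, build GRCm38.p6, plus strand, and cover the 250 bases before the start 5′ to 3′. Capitals mark matches to CCACCC or its reverse complement GGGTGG, the core of sites bound by KLF proteins. The stretch before the upstream start, which is base 86361117, is chr12:86360867-86361116, and that before the downstream start, base 86421644, is chr12:86421394-86421643.

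Upstream start of *Esrrb*: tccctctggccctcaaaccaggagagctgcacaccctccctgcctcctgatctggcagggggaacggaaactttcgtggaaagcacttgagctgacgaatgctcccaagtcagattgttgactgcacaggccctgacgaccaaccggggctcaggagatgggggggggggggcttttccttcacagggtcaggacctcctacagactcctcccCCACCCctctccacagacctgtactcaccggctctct
Downstream start of *Esrrb*: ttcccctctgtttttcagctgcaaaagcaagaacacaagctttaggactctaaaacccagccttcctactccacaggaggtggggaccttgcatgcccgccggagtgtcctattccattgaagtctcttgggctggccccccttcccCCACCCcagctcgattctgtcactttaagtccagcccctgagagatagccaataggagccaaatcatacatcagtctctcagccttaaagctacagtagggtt

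Both windows, read over 300 bases each (250 before and 50 after the start), were low in CpG, with observed-to-expected CpG ratios of 0.27 upstream and 0.32 downstream. The median over all 32851 promoter windows of the reference was 0.38. A match to CCACCC was present in both, and 31.5% of all windows hold one.

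Windows of the same kind were available for 8 of the 10 factors, without *Klf5* and *Tbx3*. Their GC content ranged from 54.3% for *Nanog* to 74.3% for *Klf4*, and all 8 were above the median window of 52.7%. CpG ratios were highest for *Klf4* (0.97), *Klf2* (0.89) and *Sox2* (0.82), and *Tfcp2l1* (0.66) and *Zfp42* (0.44) followed. *Pou5f1* (0.37), *Esrrb* (0.27 for the entry kept) and *Nanog* (0.19) were lowest. Of the 8, 5 were above the median window of 0.38, and *Pou5f1* was close to it. The letters ATGCAAA or TTTGCAT, 7 bases of the octamer that OCT4 recognises, were found for *Nanog*, *Sox2* and *Zfp42*, that is 3 of 8, and in 4.6% of all windows. In *Nanog* a match to ACAATG (reverse complement CATTGT), the core recognised by SOX proteins, begins 8 bases after the start of the octamer match, and 12.6% of all windows hold such a match. The upstream window of *Esrrb* was the other member window with these letters. The downstream *Esrrb* window, at the start after which nearly all its reads were counted, did not hold them. The letters AAGGTCA or TGACCTT, a core of ESRRB sites, occurred in 0 of the 8 windows and in 4.7% of all. CCACCC or GGGTGG was found in 5 of the 8 windows, with 4 matches in *Pou5f1*, and in 31.5% of all. A TATAAA or TTTATA match was found in *Tfcp2l1* and in 13.6% of all windows. For *Sox2* the RefSeq start lies 410 bases before that of the GENCODE transcript. These are matches of letters only, and binding was not measured here. The stretches with the octamer match are printed because OCT4 and SOX2 are themselves members, with capitals for the matches to the octamer, SOX, KLF and other letters just named. They come from RefSeq, build GRCm38.p6, and read 5′ to 3′ in the sense of the gene. The positions are chr6:122707387-122707450 on the plus strand for *Nanog*, chr3:34649869-34649932 on the plus strand for *Sox2* and chr8:43307158-43307221 on the minus strand for *Zfp42*.

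*Nanog*: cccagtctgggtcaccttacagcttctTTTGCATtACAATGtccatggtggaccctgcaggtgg
*Sox2*: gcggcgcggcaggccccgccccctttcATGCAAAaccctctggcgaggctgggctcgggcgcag
*Zfp42*: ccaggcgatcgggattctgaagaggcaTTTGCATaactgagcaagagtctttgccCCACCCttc

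*Sox2* lies whole within *Sox2ot*, a long noncoding RNA gene on the same strand. *Sox2ot* had a base mean of 4697 normalised counts over 117.61 kb of span, and that of *Sox2* equals 85.4% of it. For 183 pairs of entries of different genes in which one lies inside another on the same strand, the outer entry had at least the base mean of the inner one in 179 (97.8%). For 115 such pairs on opposite strands the outer entry did so in 75 (65.2%). The base means of *Sox2ot* and *Sox2* differed by 684.4 normalised counts, or 5.92 per kb of the rest of the *Sox2ot* span, and whether a read was counted for both genes was not tested. Annotated genes of other kinds overlapped *Pou5f1*, *Tfcp2l1* and *Tbx3*, and none of these had an entry. Those of *Pou5f1* (*Gm19553*) and *Tbx3* (*Tbx3os1*) are antisense genes. Whether the counting used strand is not given in the sources used here. In 40 of the 115 nested pairs on opposite strands the outer entry was below the inner one, against 4 of the 183 on the same strand.

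Reads of 40 bases can also match copies of a gene elsewhere. In the exons of *Pou5f1*, 18.1% of stretches of 40 bases occurred in annotated transcripts of 3 other genes, among them the overlapping antisense gene *Gm19553*. For *Zfp42* the share was 12.1%, all in the pseudogene *Zfp42-ps1*, and for *Nanog* it was 8.5%, in 524 other genes with *Nanog-ps1* among them. *Sox2*, *Klf2* and *Esrrb* shared 0 such stretches, and the remaining members between 0.9% and 1.6%. Stretches shared with an overlapping gene can lie at the same position, so they need not be copies elsewhere, and they were not counted apart. This concerns *Pou5f1* (*Gm19553*), *Tfcp2l1* (*Gm23497*) and *Tbx3*, whose only sharing gene was *Tbx3os1*. Among members that share stretches with no overlapping gene, *Zfp42* and *Nanog* had the largest shares. Exons make up 14.9% of the *Zfp42* span and 27.9% of that of *Nanog*, and introns were not compared. How reads with several matches were counted was not examined, and the authors had filtered the gene set on mappability. The shares therefore do not rank the factors, *Pou5f1* included, by the certainty of their base means.

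Each factor was set beside the nearest entry on either side that does not overlap it. Per kb of span, 8 of the 10 factors were above both neighbours, and 17 of the 20 neighbours were below their factor. Of 17653 genes with an entry on both sides, 33.5% were above both, and of the 1806 of these in the top decile per kb of span, 85.1% were. The count for the factors is thus near the share of other genes at such levels. It also depends on the scale. By base mean only *Esrrb*, *Tfcp2l1* and *Tbx3* were above both neighbours, and *Sox2* (4013 normalised counts), for example, was below *Atp11b* (9582). Per kb of span, *Tbx3* exceeded *Tbx3os2*, which starts 0.4 kb after its end, 41.4-fold, and *Klf5* exceeded its relative *Klf12* 12.4-fold. By base mean, however, *Klf12* was higher, with 4119 normalised counts against 2016.5 for *Klf5*. The exceptions per kb of span were at 2 genes. *Nanog*, at 410.0 per kb, lay 13.2 kb from *Slc2a3*, a glucose transporter gene with 2794 per kb, and 97.4 kb from *Gdf3*, a TGF-beta family ligand with 360 per kb. *Zfp42*, at 201 per kb, lay between *Triml2* with 207 and *Fat1* with 276 per kb. Neighbours were between 0.4 and 1643 kb away.

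**Figure D3:**
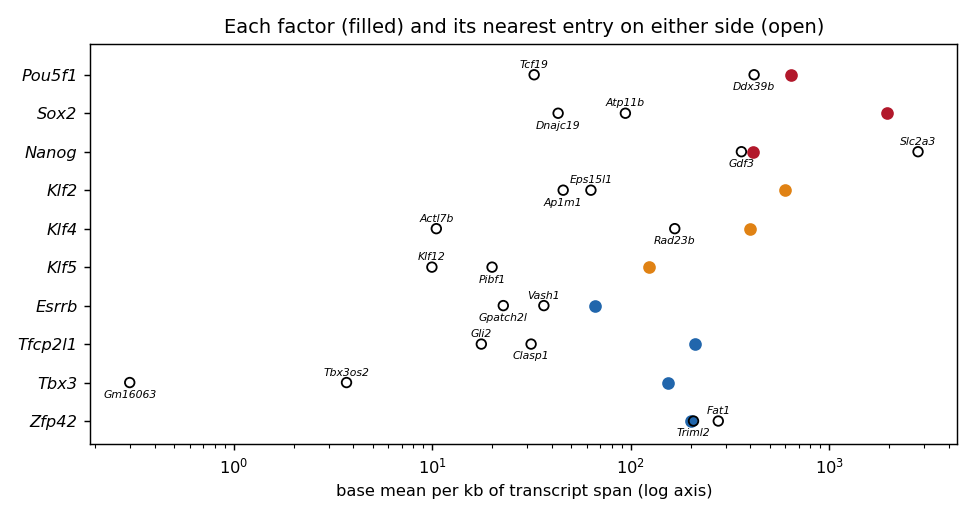
Base mean per kb of transcript span (log axis) for each factor (filled; red, core; orange, KLF; blue, other naive-state factors) and the nearest non-overlapping entry on either side (open, named). Of the 10 factors, 8 lie to the right of both neighbours, while *Slc2a3* exceeds *Nanog*, and *Triml2* and *Fat1* exceed *Zfp42*.

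Other genes of the pluripotent state, and those of LIF and related signalling, were lower per kb of span than the 10 factors by their medians. These were 92.8 per kb for LIF and related signalling and 121.7 per kb for other regulators, against 305 per kb. By base mean the median for LIF and related signalling, 3669 normalised counts, was above the 2664 of the factors. That for other regulators, 1565, was below it. All 7 genes of LIF and related signalling had base means above the lowest of the factors. Per kb of span they ranged from 20.0 for the kinase gene *Jak1* to 2181 for *Tdgf1*, a co-receptor of NODAL. In the top decile were 3 of the 7 (*Tdgf1*, *Fgf4* and *Socs3*). *Lifr*, *Il6st*, *Jak1* and *Stat3* were outside it, between 20.0 and 92.8 per kb. Among 16 other regulators of pluripotency, 13 had an entry, and 7 of these were in the top decile per kb of span. By base mean 7 of the 13 exceeded the lowest of the factors, and 2 were under the median entry, *Gbx2* with 250.4 and *Prdm14* with 302.8 normalised counts. *Trim28*, a corepressor gene, led them with 1543 per kb, and *Prdm14* was lowest with 22.1 per kb. *Dppa3*, *Dppa5a* and *Fbxo15* had no entry.

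Most markers of other cell types had lower levels than the factors, by base mean and per kb of span, and a few had base means in the range of the factors. The 6 mesendoderm genes had base means between 0.4 normalised counts for *Gsc* and 18.1 for *Mixl1*, and all 6 were under the median entry. Of 9 primitive endoderm genes, 6 were under the median entry by base mean, but *Lama1* (5169 normalised counts) and *Col4a1* (3327), which encode basement membrane proteins, were in the top decile. Per kb of span *Lama1* was the highest of this list with 41.2, and *Afp* the lowest with 0.049. Per kb of exon, *Lama1* (543) and *Col4a1* (503) exceeded *Tbx3* (444), the lowest factor on that scale, and the rest of the list did not. In the trophoblast list, 7 of 8 genes had an entry, with none for *Krt8*, and 6 of the 7 were under the median entry by base mean. *Tfap2c*, which is also active in germ cells, had 125 per kb of span, while *Elf5* had 0.133. The neural genes ranged from 0.48 per kb for *Zic1* to 82.0 for *Nes*. The fibroblast genes ranged from 0.045 per kb for *Postn* to 21.96 for *Col1a1*.

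Genes of the formative and primed states, which follow the naive state, had a median per kb of span below the factors and above each list of other cell types. Of 9, 6 were under the median entry by base mean, the same count as for primitive endoderm. *Fgf5*, the classic primed marker, was lowest per kb of span with 1.14 and had 24.0 normalised counts. *Cldn6* was highest with 279 per kb. *Dnmt3b*, with 2964 normalised counts, was the only gene of this list with a base mean in the range of the factors. Per kb of exon, *Dnmt3b* (696) and *Cldn6* (550) exceeded *Tbx3* (444), and the rest of the list did not. Medians per kb of span were 305 for the 10 factors, 19.3 for the formative and primed genes, 11.2 for trophoblast, 9.47 for neural, 4.00 for primitive endoderm, 3.25 for fibroblast and 1.05 for mesendoderm genes. The housekeeping genes had a median of 384 per kb, from 42.4 for *Tbp* to 4773 for *Actb*. In total, 4 genes of the lists of other cell types and later states exceeded *Esrrb*, the lowest factor per kb of span (*Cldn6*, *Dnmt3b*, *Tfap2c* and *Nes*). With the span of the shorter *Esrrb* entry, at 105.9 per kb, *Dnmt3b* (77.4) and *Nes* (82.0) were below it. *Cldn6* and *Tfap2c* were still above. With bulk RNA a few cells of another type at a high level cannot be told apart from many cells at a low one.

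**Figure D4:**
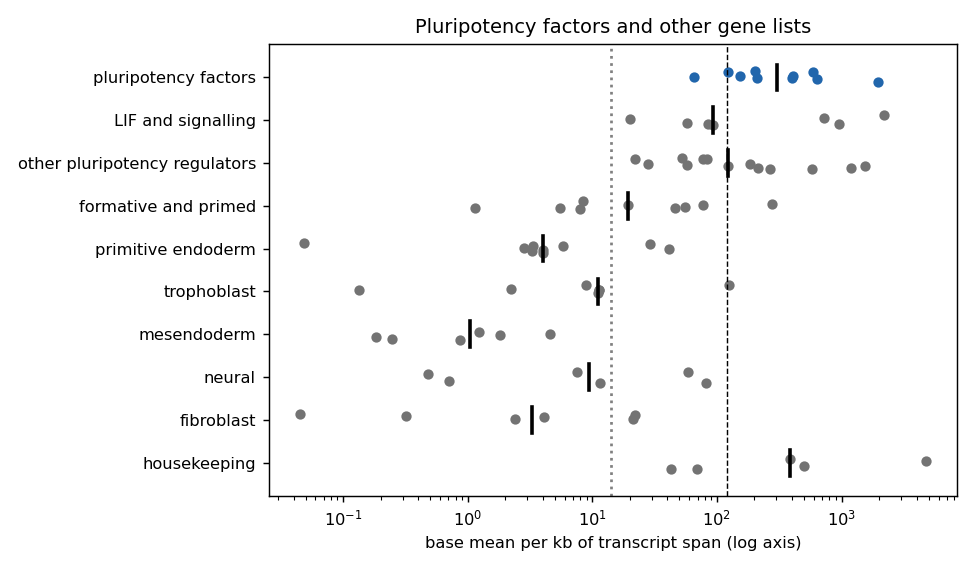
Base mean per kb of transcript span (log axis) for the 10 pluripotency factors (blue) and the genes of 9 other lists (grey); each point is 1 gene, black bars are list medians, and dotted and dashed lines mark the median entry and the start of the top decile. The factors lie between 66.1 and 1951 per kb, and the list medians for other cell types and later states lie between 1.05 and 19.3.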

How the data were processed

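Nuclear RNA from 3 UNT and 3 OHT samples was sequenced by the authors with paired reads of 40 bases from a strand-specific kit. Per the study's methods, the authors set rRNA reads aside using bowtie2, mapped the rest to mm10 by STAR, with bowtie2 for reads that STAR left unmapped, counted reads over a RefSeq gene set filtered on size, mappability and unique ends, and applied DESeq2. The deposited base mean is a signal, the authors' mean over all libraries of size-factor normalised counts. The table also holds the authors' comparison of OHT with UNT (fold changes with errors, test statistics, p-values and a threshold flag). These columns were not used, so no test was possible and the count test planned for values per library was not run. 0 columns hold values of single samples.

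Of the 20633 entries, 20450 were named through the RefSeq table of GRCm38.p6 and 20560 after adding GENCODE vM21. Spans and exon lengths are those of the paired GENCODE transcript, known for 98.3% of the entries above 0. Percentiles are ranks among these entries. Members and lists were chosen with earlier results of these data known. Every member is named, and of each other list the genes with the highest and lowest base mean per kb of span; further genes were named after their values were seen. Python 3.11.15, numpy 2.4.6, pandas 2.3.3 and matplotlib 3.10.9 were used, and the motif search was tested on simulated sequences with planted matches. A simulated check of the ranking could not fail, because the raised entries were set above all others and length cancelled out. It is no test of the levels per kb. Overlaps, shared stretches, promoter letters and neighbours were examined after the values had been seen.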

Additional observations from a re-analysis of the deposited data

How the results depend on the processing

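No paired analysis was possible because a mean over all 6 libraries leaves no replicates to pair. The planned tests on counts, with other size factors, without low counts or without single replicates, could not be run on it either.

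By base mean, 3 of the 10 factors were in the top decile, and 3 were in it when entries at 0 were included, when entries under a base mean of 10 were left out, with 1 entry per gene, and with the entries of a symbol summed. Per kb of span the number was 9. It was 8 with a base mean of at least 10, 9 with 1 entry per gene and 6 with exon length. With the length of the whole RefSeq gene, an alternative chosen after seeing the data, it was 9, and *Sox2* then had 1626.5 per kb, as its RefSeq gene is longer than the GENCODE transcript. The place of *Esrrb* among the factors depends on the length used, and that of *Tfcp2l1* is the same per kb of span and of exon. As exons make up 2.7% of the *Esrrb* span and counts followed the span, its first place per kb of exon is not read as a level. Depth and replicate error are unknown, so small gaps between factors, such as *Nanog* and *Klf4* per kb of span, are not interpreted.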
